A study of Mus musculus with 10 samples.

Results

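Increased pulmonary flow (IPF) and sham lungs were compared here for 8 genes of the cytosolic RNA sensing system, Ddx58, Ifih1, Dhx58, Mavs, Zbp1, Eif2ak2, Adar and Trim25, which were taken by gene symbol from the 54532 genes of the deposited expression table. Each symbol matched a single gene, and all 8 passed the filter on low values (mean over the 10 lungs no lower than 0.1 FPKM), as did 20448 genes in all. Whole lungs were collected at postnatal day 30 (P30) from wild-type mice. In the IPF group (n = 5) an aortocaval fistula, an opening between the abdominal aorta and the inferior vena cava that sends extra blood through the lung, had been made at postnatal day 7, and in the sham group (n = 5) the same operation had been done without the puncture. All mice thus shared the anesthesia and laparotomy. The methods give C57BL/6J pups of both sexes, but by sex-linked genes all IPF lungs here were female and all sham lungs male. Sex and operation therefore cannot be told apart in any comparison below. Nothing in the labels ties a sample to a litter or a day, so p-values measure the spread between these samples. The unit is FPKM, fragments scaled to the length of the gene and the size of the library, which allows levels of different genes to be set side by side per length.

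Double-stranded RNA in the cytosol, as viruses make it, is bound by RIG-I (encoded by Ddx58) and MDA5 (Ifih1), helicases that signal through the mitochondrial adaptor MAVS to the kinase TBK1, the factors IRF3 and IRF7, and interferon genes. LGP2 (Dhx58) is the related helicase that lacks the signaling domains and modulates the other two, and TRIM25 is a ubiquitin ligase that acts on RIG-I signaling. ZBP1 binds Z-form nucleic acids and can start necroptosis, PKR (Eif2ak2) phosphorylates eIF2-alpha and stops translation, and ADAR1 (Adar) edits adenosine to inosine in double-stranded RNA, which keeps cellular RNA from being sensed. Most of these genes are themselves induced by interferon, through the interferon-stimulated response element (ISRE) in their promoters, whereas Mavs is known as a constitutive gene.

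Promoters were read because the members differ in how they respond to interferon. RefSeq promoter windows of the build GRCm38.p6, which run from 250 bases before to 50 bases after a transcription start, were at hand for 6 of the 8 members (8 windows), and not for Dhx58 and Zbp1. The ISRE core was searched as TTTC, any 2 bases (NN) and TTTC again, on both strands (GAAA, NN and GAAA on the other), and the interferon-gamma activated site (GAS) as TTCNNNGAA, which reads the same on both strands. An ISRE core lay in the windows of 3 members, Ddx58, Ifih1 and Eif2ak2, and 3.99% of the 27025 genes with a window held one (3.44% of all 32851 windows). A GAS lay in windows of 2 members, Eif2ak2 and Adar, and 9.55% of genes held one (8.30% of windows). No ISRE core match overlapped a GAS match, and the windows of Mavs and Trim25 held neither. The Ddx58 and Eif2ak2 promoters are shown from 250 bases upstream to the end of the ISRE core, and Ifih1 as a 30-base stretch, since these 3 carry the ISRE core. All 3 are on the minus strand and are printed 5′ to 3′ along the gene, with motif matches in capitals, at chr4:40239814-40240075, chr17:78882545-78882822 and chr2:62646206-62646235.
Ddx58 promoter: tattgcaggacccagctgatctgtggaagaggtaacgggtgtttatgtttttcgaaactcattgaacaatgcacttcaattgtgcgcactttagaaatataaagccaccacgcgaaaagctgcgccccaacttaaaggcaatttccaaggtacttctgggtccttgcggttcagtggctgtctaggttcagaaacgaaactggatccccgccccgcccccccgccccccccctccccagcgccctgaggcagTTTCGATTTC
Eif2ak2 promoter: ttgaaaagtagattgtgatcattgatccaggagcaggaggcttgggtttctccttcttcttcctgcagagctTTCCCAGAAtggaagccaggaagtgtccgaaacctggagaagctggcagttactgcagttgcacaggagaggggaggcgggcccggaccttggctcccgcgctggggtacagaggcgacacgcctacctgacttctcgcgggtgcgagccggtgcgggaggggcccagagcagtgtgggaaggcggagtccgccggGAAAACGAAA
Ifih1 ISRE core: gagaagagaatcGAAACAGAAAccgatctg
Counted from 1 at the transcription start, the ISRE core ran from position 3 to 12 in Ddx58, from 19 to 28 in Eif2ak2 and from 33 to 42 in Ifih1, so it fell just inside the transcript in all 3. In Ddx58 it was on the strand of the gene, and in the other two on the opposite strand. The GAS of Eif2ak2 lay at positions -178 to -170, and that of Adar from 23 to 31 of a RefSeq start 15696 bases from the deposited one. Unlike in all other windows, the bases after that start were not found near the beginning of a reference transcript of the gene. The ISRE pattern allows exactly 2 bases between its repeats, so elements with other spacing were missed, also in windows counted as without a match. A match of letters is a description of the window only.

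Of the 8 genes, 3 rose in IPF lungs, namely Dhx58, Trim25 and Ddx58, and 0 fell (limma, Benjamini-Hochberg adjusted p under 0.05 over all genes tested). Over all genes tested, 5.85% were called in either direction, 3.71% higher and 2.14% lower. The 3 that rose were also the 3 whose groups did not overlap with every IPF lung higher, against 4.52% of all genes (7.29% in either direction). No member passed the stricter rule that adds a log2 fold change beyond 1 in size (Zbp1 was beyond that size but not past the adjusted p), which 1.14% of all genes passed (0.68% higher). The fitted difference was above 0 for 7 members and below 0 for Mavs, and its median over the 8 was 0.29 on the log2 scale, against 0.0016 over all genes tested. At an unadjusted limma p under 0.05 the count of members was 5, and 19.5% of all genes tested were under it. The levels by lung are drawn in the plot of FPKM per member, and the differences with their intervals in the plot of log2 fold changes.

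**Figure D1:**
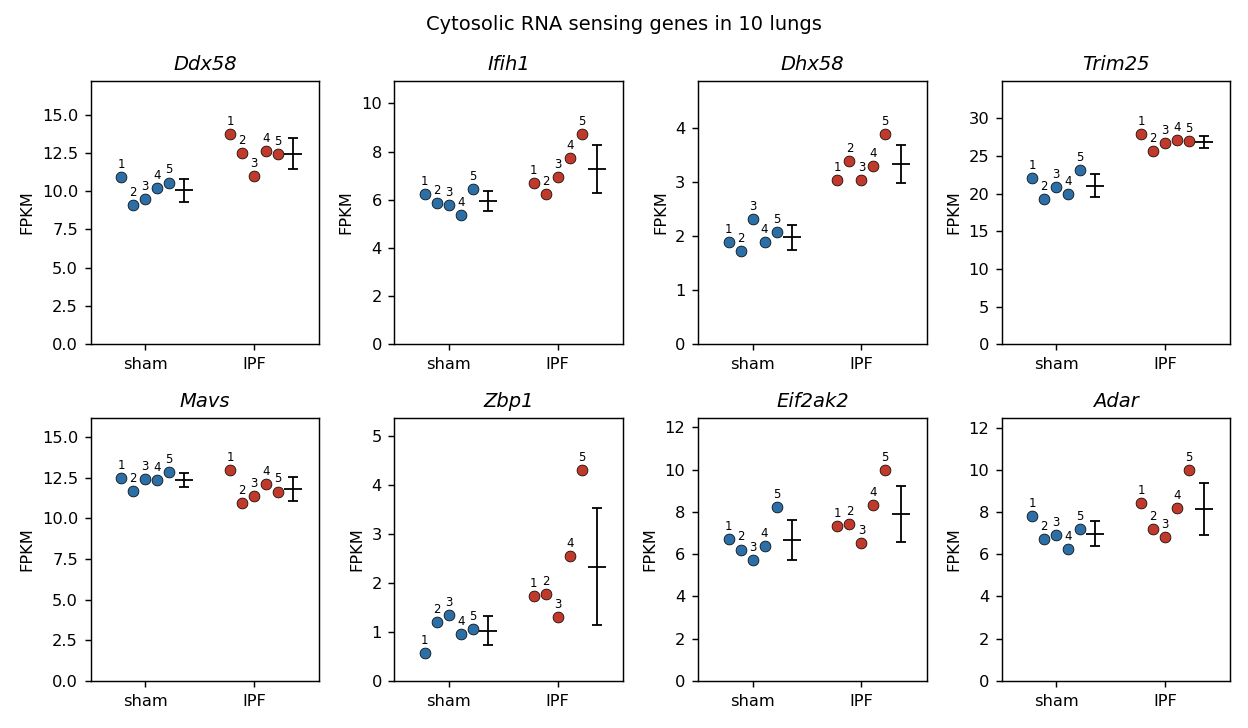
FPKM of the 8 members in each of the 5 sham and 5 IPF lungs, each member in a panel with its own axis, with the group mean and SD. The groups are apart for Ddx58, Dhx58 and Trim25 and overlap for the other five.

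Ddx58 (ENSMUSG00000040296, GRCm38 chr4:40203773-40239828, minus strand) encodes RIG-I, the sensor of RNA with 5′ triphosphate ends. Its FPKM in IPF replicates 1 to 5 was 13.8, 12.5, 10.98, 12.6 and 12.5, and in sham replicates 1 to 5 it was 10.93, 9.10, 9.48, 10.2 and 10.6. The groups were apart, but IPF replicate 3 stood just above sham replicate 1. The mean was 12.5 ± 0.990 FPKM in IPF and 10.1 ± 0.757 in sham lungs (SD, n = 5 each), which differ by 0.31 in log2 (SE 0.073, 95% interval 0.14 to 0.47, limma adjusted p = 0.0324, exact permutation p = 0.00794, the smallest that 252 assignments of the lungs allow). This call was the least stable of the 3: the log2 fold change lay between 0.27 and 0.35 with any lung left out, but the adjusted p stayed under 0.05 in 4 of 10 such limma fits. Without IPF replicate 1, 2 or 4 it was 0.0787, 0.0750 and 0.0803, and without sham replicate 2, 3 or 4 it was 0.0781, 0.0834 and 0.0616 (limma).

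Ifih1 (ENSMUSG00000026896, chr2:62595798-62646255, minus strand) encodes MDA5, which binds long double-stranded RNA. The 5 IPF lungs held 6.70, 6.24, 6.96, 7.74 and 8.74 FPKM, and the 5 sham lungs 6.26, 5.85, 5.77, 5.38 and 6.45. Of the IPF lungs, 4 were above every sham lung, and IPF replicate 2 was inside the sham range. The log2 fold change of 0.28 (SE 0.094, 95% interval 0.08 to 0.49) was close in size to that of Ddx58, but it did not pass the test (limma adjusted p = 0.115, exact permutation p = 0.0238). Its SD was 0.984 FPKM in IPF and 0.423 in sham lungs.

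Dhx58 (ENSMUSG00000017830, chr11:100694884-100704271, minus strand) encodes LGP2 and showed the largest difference of the members that passed the test. Its FPKM was 3.05, 3.39, 3.04, 3.30 and 3.90 in IPF lungs and 1.89, 1.72, 2.32, 1.89 and 2.08 in sham lungs. The lowest IPF lung was well above the highest sham lung. The means were 3.34 ± 0.352 and 1.98 ± 0.230 FPKM (SD, n = 5 each), a 1.65-fold difference on the log2(FPKM + 0.1) scale (log2 0.72, SE 0.10, 95% interval 0.50 to 0.95, limma adjusted p = 0.00291, exact permutation p = 0.00794). An antisense gene, Dhx58os, overlaps it, was listed at no more than 0.151 FPKM in any lung, and could not be separated from it if reads were counted without strand, which the sources used here do not state. Between 101 and 226 recovered reads per lung lay behind Dhx58.

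The 3 helicases were also compared with each other and with Mavs within each lung, in 6 pairs picked after their values were seen. Since they were picked for their values, they are given as descriptions with no test. The mean log2 ratio of Dhx58 to Ddx58 was 0.42 higher in IPF than in sham lungs, and that of Dhx58 to Ifih1 0.44 higher. Ddx58 against Ifih1 differed by 0.02. Relative to Mavs, the mean log2 ratio was higher in IPF lungs by 0.79 for Dhx58, 0.37 for Ddx58 and 0.35 for Ifih1. Mavs was the only member with a fitted value below 0, which adds to these differences.

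Trim25 (ENSMUSG00000000275, chr11:88999376-89020293, plus strand), the ubiquitin ligase, was the most abundant member in both groups. Its FPKM was 28.0, 25.6, 26.7, 27.1 and 27.0 in IPF lungs and 22.1, 19.3, 20.9, 19.97 and 23.1 in sham lungs. The IPF lungs lay in a narrow band above all sham lungs. The means were 26.9 ± 0.848 and 21.1 ± 1.56 FPKM (SD, n = 5 each), and the log2 difference was 0.35 (SE 0.058, 95% interval 0.22 to 0.48, limma adjusted p = 0.00596, exact permutation p = 0.00794). Trim25 and Dhx58 stayed called in all 21 alternative fits.

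Mavs (ENSMUSG00000037523, chr2:131234063-131248025, plus strand), the adaptor on which both receptors converge, was the only member with a fitted value below 0. It was at 12.96, 10.98, 11.4, 12.1 and 11.66 FPKM in IPF lungs and 12.5, 11.69, 12.5, 12.3 and 12.9 in sham lungs. IPF replicates 2, 3 and 5 lay below every sham lung, while IPF replicate 1 was the highest of the 10 lungs. The log2 fold change of -0.07 (SE 0.057) had a 95% interval from -0.19 to 0.06 and did not pass the test (limma adjusted p = 0.575, exact permutation p = 0.190). It was -0.04 without IPF replicate 2 and -0.10 without IPF replicate 1.

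**Figure D2:**
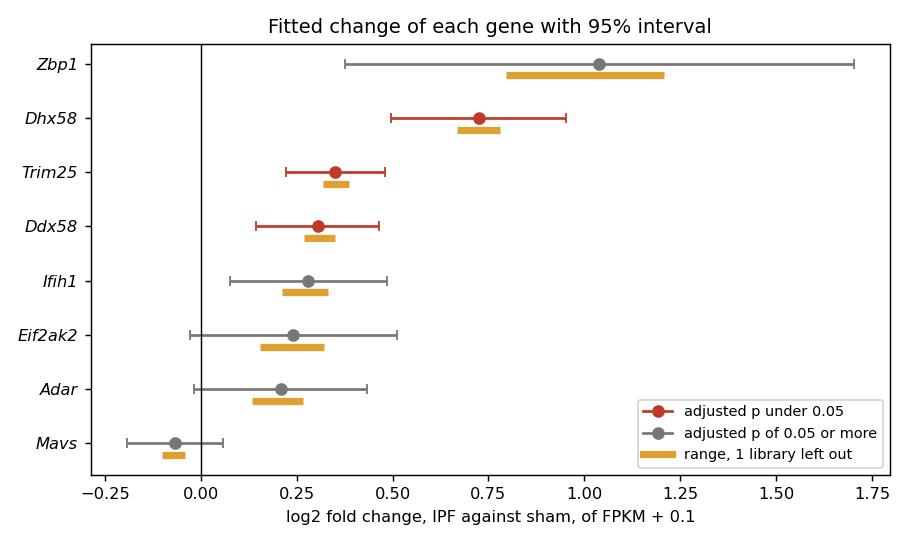
Log2 fold change (IPF minus sham, log2(FPKM + 0.1) scale) of each member with its 95% interval from limma, red where the adjusted p was under 0.05 and gray otherwise, and below it, in orange, the range with each lung left out in turn. Zbp1 has the largest value, 1.04, and the widest interval, and Mavs sits at -0.07.

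Zbp1 (ENSMUSG00000027514, chr2:173206612-173218923, minus strand) had the largest fitted difference of the 8 and, in both groups, the largest SD relative to its mean. It was the least abundant member, at 1.73, 1.77, 1.30, 2.55 and 4.29 FPKM in IPF lungs and 0.567, 1.20, 1.34, 0.953 and 1.06 in sham lungs. IPF replicate 5 was far above the rest, and IPF replicate 3 was below sham replicate 3. The means were 2.33 ± 1.19 and 1.02 ± 0.294 FPKM (SD, n = 5 each), and the log2 fold change of 1.04 (SE 0.30, 95% interval 0.38 to 1.70) did not pass over all genes (limma adjusted p = 0.0716, exact permutation p = 0.0159). Between 33 and 268 recovered reads per lung lay behind these values. With IPF replicate 3 left out the log2 fold change was 1.21 and passed (limma adjusted p = 0.0417). With IPF replicate 5 and sham replicate 1 both left out, a fit added after the data were seen, it was 0.62 (limma adjusted p = 0.104). The study's enrichment results list Zbp1 under the term response to virus, among the genes it called changed with DESeq2. Those calls differ in method from the limma fit here. They come from these same samples, so that listing is no independent evidence of its direction.

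Eif2ak2 (ENSMUSG00000024079, chr17:78852564-78882573, minus strand), the kinase PKR, was at 7.34, 7.40, 6.51, 8.34 and 9.96 FPKM in IPF and 6.73, 6.22, 5.73, 6.36 and 8.25 FPKM in sham lungs. Sham replicate 5 stood above 3 of the IPF lungs. The log2 fold change was 0.24 (SE 0.12, 95% interval -0.03 to 0.51, limma adjusted p = 0.312, exact permutation p = 0.103), and 0.16 without IPF replicate 5. Adar (ENSMUSG00000027951, chr3:89715022-89753446, plus strand), the RNA editing enzyme, was at 8.43, 7.20, 6.83, 8.19 and 9.97 FPKM in IPF and 7.83, 6.70, 6.90, 6.23 and 7.20 FPKM in sham lungs. The groups overlapped here too. Its log2 fold change was 0.21 (SE 0.10, 95% interval -0.02 to 0.43, limma adjusted p = 0.293, exact permutation p = 0.0873), and 0.13 without IPF replicate 5. For neither gene did the interval leave out 0.

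In level, the order in sham lungs was Trim25, Mavs, Ddx58, Adar, Eif2ak2, Ifih1, Dhx58 and Zbp1 (mean FPKM). Adar, Eif2ak2 and Ifih1 followed each other with overlapping ranges, while all other neighbors in that order were apart. In IPF lungs the order of Mavs and Ddx58 turned, and the ranges of this pair and of Dhx58 and Zbp1 overlapped as well.

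The members also differed in which lung was high. IPF replicate 5 was the highest of the 10 lungs for 5 members, Ifih1, Dhx58, Zbp1, Eif2ak2 and Adar, and IPF replicate 1 for the other three, Ddx58, Trim25 and Mavs. After the group mean was subtracted from log2(FPKM + 0.1), Pearson r over 10 lungs was 0.606 for Ddx58 with Trim25, 0.684 for Ddx58 with Mavs and 0.725 for Mavs with Trim25, and these values were 0.607, 0.688 and 0.733 over the 9 lungs without IPF replicate 5. It was 0.799 for Ifih1 with Adar, 0.775 for Ifih1 with Eif2ak2, 0.720 for Eif2ak2 with Adar and 0.651 for Dhx58 with Zbp1, and without IPF replicate 5 these were lower, at 0.600, 0.593, 0.497 and 0.403. Without that lung Adar also varied with Ddx58 (0.715), Mavs (0.684) and Trim25 (0.664), more closely than over all 10 lungs (0.518, 0.419 and 0.500), so the members did not fall into fixed groups. The points share their libraries and depth, and the values are descriptions.

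The same deviations were set beside the mean of 24 classical interferon-stimulated genes, a comparison added after the members' values were seen. Zbp1 followed that mean most closely (r 0.883, and 0.885 without IPF replicate 5), then Dhx58 (0.734, and 0.630). For Eif2ak2, Ifih1 and Adar the values of 0.642, 0.637 and 0.622 became 0.163, -0.123 and -0.137 without IPF replicate 5, so they rested on that lung. Ddx58, Mavs and Trim25 were near 0, at -0.040, -0.087 and -0.0075. The mean itself, in log2(FPKM + 0.1), was 2.72, 2.77, 2.65, 2.76 and 3.32 in IPF lungs and 1.93, 2.07, 2.15, 2.05 and 2.12 in sham lungs, highest in IPF replicate 5. The plot of deviations by lung shows these patterns.

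**Figure D3:**
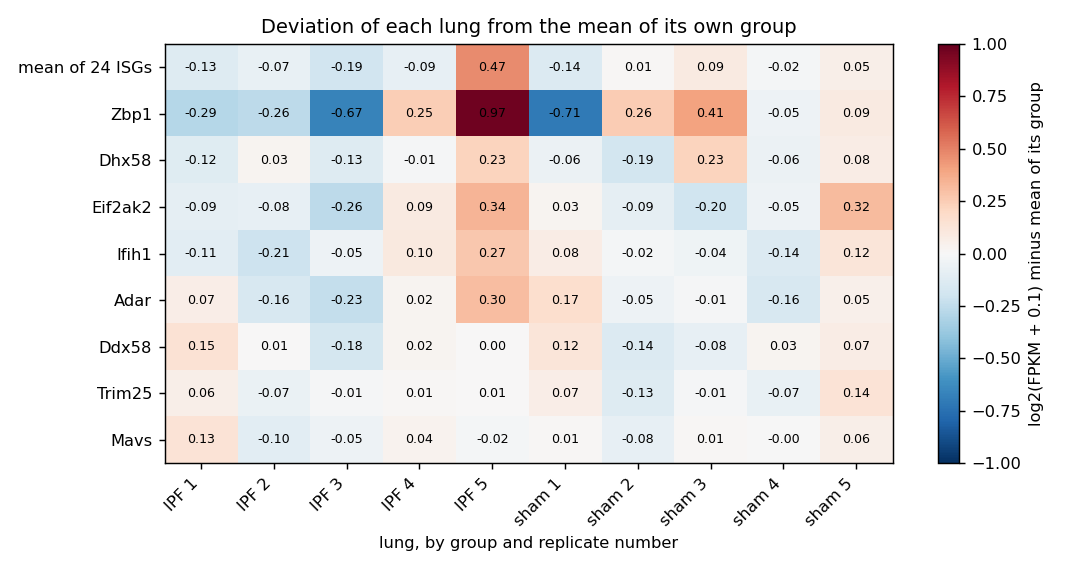
Deviation of each member from its group mean, in log2(FPKM + 0.1), in each of the 10 lungs as color and number, with the mean of 24 interferon-stimulated genes (ISGs) in the top row. IPF replicate 5 is the highest IPF lung for Zbp1, Ifih1, Dhx58, Eif2ak2 and Adar, and IPF replicate 1 for Ddx58, Trim25 and Mavs.

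The genes whose deviations were most like each member's were sought among the 13445 genes whose mean FPKM reached 1 (group-centered Pearson r over 10 lungs). They were Shroom4 (0.973) and Runx1t1 (0.948) for Ddx58, and Trappc8 (0.963) and Pias2 (0.957) for Ifih1. For Dhx58 they were Gp9 (0.937) and Gnb4 (0.932), and for Mavs Gnas (0.912) and Extl3 (0.910). Rnf13 (0.936) and Hspa14 (0.935) were most like Zbp1, and Lipa (0.971) and Gmfb (0.959) most like Eif2ak2. For Adar they were Sh2b3 (0.996) and Eps15 (0.986), and for Trim25 Dusp4 (0.985) and Lama3 (0.954). All 8 members, Mavs included, had a nearest gene at 0.912 or above. Each value is the highest among 13445 genes over only 10 lungs, a search that yields high values by itself. No reference value for it was computed, so the names are descriptions only.

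Downstream of MAVS, 3 of 23 tested genes rose and 0 fell. These were Irf5 (log2 fold change 0.67, limma adjusted p = 0.00656), Irf7 (0.82, 0.0462), transcription factors of interferon and cytokine genes, and Traf5 (0.33, 0.0406). Tbk1, the kinase that phosphorylates IRF3, had a log2 fold change of -0.08 and Irf3 itself 0.0039, neither past the test. The median over the 23 genes was 0.09. Of 27 co-factors and activators of the receptors, Nmi rose (0.32, limma adjusted p = 0.0178), which is 3.70% of the list beside 3.71% of all genes tested, and the median was 0.02. Of 29 negative regulators, 5 rose and 0 fell, with a median of 0.14. They included Isg15, the ubiquitin-like modifier (1.26, limma adjusted p = 0.00373), the phosphatase Ptpn6 (0.47, 0.0155), the kinase Dapk1 (0.36, 0.0344) and Trim59 (0.54, 0.0428). As background, Ptpn6 and Dapk1 also act well outside RNA sensing, in leukocyte signaling and cell death.

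Around ZBP1, 0 of 11 tested partners in necroptosis were called by limma, while 3 had an unadjusted p under 0.05, and the median was 0.16. Ripk3, the kinase that ZBP1 engages, was at -0.11 and its substrate Mlkl at 0.11. Around PKR, 2 of 21 genes rose: Ddit3, a transcription factor of the stress response (0.41, limma adjusted p = 0.0323), and Eif2s3x, the X-linked gamma subunit of eIF2 (0.60, 0.000338). The Y-linked copy of the latter, Eif2s3y, was at 0 FPKM in all IPF lungs and 9.92 ± 2.12 in sham lungs (SD, n = 5 each), and sex and operation cannot be told apart for Eif2s3x either. The 2 genes are 9.52% of that list, beside 3.71% of all genes called higher, and its median was 0.0045. Among 19 other proteins that bind or edit double-stranded RNA, Adarb1, the second editing enzyme, fell (log2 fold change -0.41, limma adjusted p = 0.0263), from 19.9 ± 1.49 FPKM in sham to 15.0 ± 2.23 in IPF lungs (SD, n = 5 each). That 1 gene is 5.26% of the list, beside 2.14% of all genes called lower.

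In the other nucleic acid sensors, the endosomal pathway had 3 of 13 genes higher: Tlr3, the endosomal receptor of double-stranded RNA (0.29, limma adjusted p = 0.0418), the adaptor Myd88 (0.24, 0.0198) and the chaperone Unc93b1 (0.37, 0.0394), with a median of 0.24. Of 16 cytosolic DNA sensing genes 6 rose and 0 fell (median 0.32). The smallest adjusted p-values were those of Ifi209 (0.93, limma adjusted p = 0.000234), Ifi203 (0.76, 0.00204), Ifi211 (1.01, 0.00296) and Ifi208 (0.48, 0.00621). All 6 are neighboring chromosome 1 paralogs of similar sequence, whose counts are uncertain where reads are shared. No gene outside that family was called, with Mb21d1 at -0.32 and Tmem173 at 0.27.

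The interferon genes, products of the pathway, were listed at or near 0. Over 20 type I and type III interferon genes, IPF lungs held 1 to 5 recovered reads in all and sham lungs 0 to 10, and 15 of the genes had 0 reads in every lung, which allows up to 3 reads per gene and lung, for counting error only. A 0 in this table may also come from the quantification, since Trex1, a DNA exonuclease gene that is broadly expressed, was listed at 0 in all 10 lungs. Only Ifnk passed the filter, and it was not called. Of the 24 classical interferon-stimulated genes 17 rose and 0 fell, with a median of 0.72. Examples were Rtp4 (1.06, limma adjusted p = 0.00179), Cmpk2 (0.73, 0.00189) and Parp14 (0.48, 0.00632). Beside the 3.71% of all genes called higher, the share was 13.0% downstream of MAVS, 17.2% of the negative regulators and 23.1% of the endosomal genes. It was 37.5% of the DNA sensing genes, all from that single paralog family, and 70.8% of the classical interferon-stimulated genes.

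**Figure D4:**
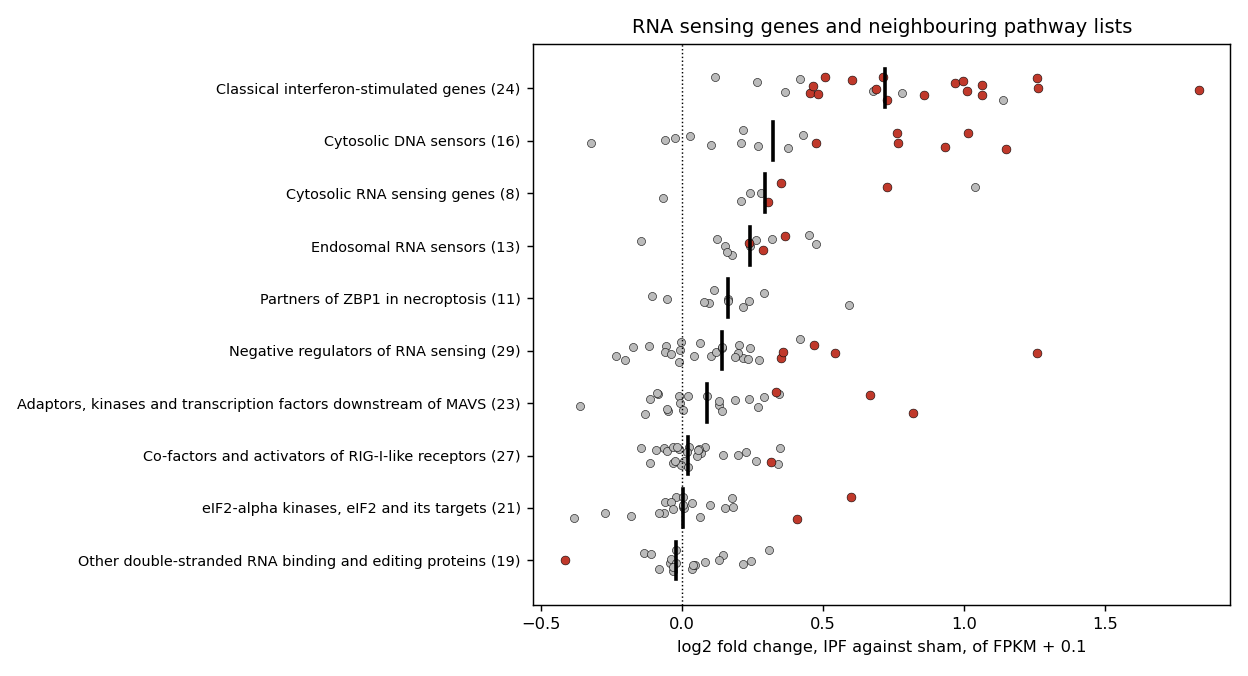
Log2 fold changes (IPF minus sham) of the members and of the tested genes on 9 neighboring pathway lists, red where called and gray otherwise, with a bar at the median of each list. The classical interferon-stimulated genes have a median of 0.72, and the genes downstream of MAVS one of 0.09.

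These are whole lungs, in which fewer cells of a type and less RNA per cell cannot be told apart. Alveolar type 2 markers (Sftpc and 3 more) summed to 12307 to 19757 FPKM and fitted the lung label. Of the markers of leukocytes, which express several members, 4 of 4 B cell genes, 4 of 5 monocyte genes, 2 of 4 NK cell genes, 1 of 6 T cell genes and 1 of 4 plasmacytoid dendritic cell genes (Bst2, also an interferon-stimulated gene) were called higher in IPF. None of the 4 genes of neutrophils, of alveolar or of interstitial macrophages was called by limma, and 4, 1 and 2 of them had an unadjusted p under 0.05. Summed monocyte markers were at 44.9 to 51.5 FPKM in IPF and 20.2 to 29.1 in sham lungs, and B cell markers at 30.7 to 45.7 and 16.5 to 27.2. NK cell markers summed to 9.00 to 15.4 FPKM in IPF and 3.18 to 7.87 in sham lungs, and T cell markers to 13.1 to 17.5 and 7.95 to 13.4. Neutrophil markers ran from 48.1 to 281.9 FPKM in IPF and 13.3 to 65.0 in sham lungs, highest in IPF replicate 5, the lung that was also highest for 5 members. The monocyte, endothelial and erythroid sums were highest in that lung too. The group-centered r with the alveolar macrophage sum was 0.737 for Ifih1, 0.724 for Zbp1 and 0.748 for Eif2ak2, and with the neutrophil sum 0.604, 0.780 and 0.510 (10 lungs, as descriptions). For Dhx58 the values with these sums were 0.453 and 0.678, and for Adar 0.404 and 0.472. They were 0.223 and 0.215 for Trim25, 0.037 and 0.071 for Mavs, and -0.082 and -0.202 for Ddx58. Sums of other cell types gave values of either sign, down to -0.834 for Adar with the ciliated airway sum. Values without IPF replicate 5 were not computed. Endothelial markers, of which 1 of 4 was called higher, summed to 921 to 1034 FPKM in IPF and 799 to 852 in sham lungs. The called gene was Cldn5, at a mean of 451 FPKM in IPF and 309 in sham lungs. Pecam1 was at 172 and 178, and Cdh5 and Kdr were higher in IPF but not called. On the lists for alveolar type 2 and type 1, ciliated airway, smooth muscle, erythroid and heart muscle cells limma called 0 genes, and 1, of alveolar type 1 cells, had an unadjusted p under 0.05. Their part in the members' differences was not tested.

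Recovered reads per lung were 15483046 to 19026843, and 22475 to 25486 genes were above 0. The groups were split by more than the operation: Xist, expressed from the inactive X chromosome, was at 34.1 ± 8.43 FPKM in IPF and 0.0493 ± 0.0225 in sham lungs, and the Y-linked Ddx3y at 0 in all IPF lungs and 17.4 ± 3.07 FPKM in sham lungs (SD, n = 5 each). All 5 sex-linked genes separated the groups, with the IPF lungs female and the sham lungs male. Sex and operation thus cannot be told apart for any member or any other gene named here. Clock genes differed as well, with Dbp at 2.26 ± 0.707 FPKM in IPF and 26.4 ± 2.61 in sham lungs and Nr1d1 at 2.08 ± 1.31 and 36.3 ± 5.08 (SD, n = 5 each), and their part in the members' values was not tested.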

How the data were processed

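Whole-lung RNA of 5 IPF and 5 sham mice was sequenced by the authors, whose methods name Fastp, HISAT2 and StringTie. The submitters' processing notes name Bowtie 0.12.2. The authors deposited 1 gene table of FPKM values with gene lengths, whose positions were those of GRCm38. FPKM times gene length times a total fitted to each library gave reads within 0.01 of a whole number for all values. How the authors set the FPKM total and whether strand was used is not given in the sources used here.

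Groups were taken from the sample titles. Genes whose mean FPKM reached 0.1 were tested on log2(FPKM + 0.1) with limma 3.58.1 (R 4.3.3, empirical Bayes with a variance trend, Benjamini-Hochberg over all genes tested). Exact permutation tests were two-sided over 252 assignments. The fit was tested on simulated data. The members and gene lists were chosen with earlier results of these data known. Named genes were the members, up to 4 called genes per list by smallest adjusted p, and the 2 genes most like each member. The list of interferon receptors and their signaling factors is not reported here. Tbk1, Irf3, Ripk3, Mlkl, Mb21d1, Tmem173, Ifnk, Trex1, Dhx58os and the sex-linked, clock and marker genes were named outside that rule. The pairs, the interferon-stimulated mean and the motifs were chosen after values were seen. Alternatives covered pseudocounts, filters, scaling, variance trend, sample weights, voom on recovered reads, a replicate block and each lung left out. Equal replicate numbers did not pair lungs (correlations of deviations -0.02 to 0.0953).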

Additional observations from a re-analysis of the deposited data

How the results depend on the processing

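Every member kept its direction in all 21 alternatives, and between 2 and 4 members were called. Without a variance trend Ddx58 had a log2 fold change of 0.31 with limma adjusted p = 0.0653. With each lung left out in turn its log2 fold change ran from 0.27 to 0.35 and that of Zbp1 from 0.80 to 1.21, with limma adjusted p from 0.0189 to 0.0834 and from 0.0417 to 0.156. Voom on recovered reads gave Zbp1 1.10 (limma adjusted p = 0.0478). With a lung left out, called genes numbered 775 to 1620 (1196 with all, 775 without IPF replicate 4), those also past the fold limit 171 to 299 (233 with all) and called pathway genes 26 to 45 (41 with all, each gene counted once and 4 of them on the list not reported here, 26 without IPF replicate 2 and 27 without IPF replicate 4). A pseudocount of 1 left 74 genes past both limits and a mean FPKM of at least 1 left 154. Without a variance trend 26 pathway genes were called, and the cause of these shifts was not tested. The replicate block, whose numbers did not pair the lungs, called 3 members and 1045 genes and changed no member's call.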
